A study of Mus musculus with 11 samples.

Results

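The integrin and laminin genes of the mouse were followed in the pancreas and in epididymal adipose tissue, comparing control mice with mice that had obesity-related alcohol-induced acute pancreatitis (OA-AP). All genes whose symbol names an integrin alpha or beta subunit or a laminin alpha, beta or gamma chain were taken, which gave 37 genes of the 54532 in the pancreas table and the same 37 of the 46078 in the adipose table. There were 26 integrins and 11 laminins. The integrins comprised 8 subunits known from leukocytes and 18 that bind matrix or are shared between the receptors. No measured value entered this choice.

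RNA was sequenced from 5 pancreas samples (control n = 2, OA-AP n = 3) and 6 adipose samples (n = 3 in each group) of wild type male C57BL/6 animals of 16 weeks. Control mice were kept on normal chow for 12 weeks and injected with saline, and OA-AP mice (condition "Model" in the sample labels) were fed high-fat diet over 12 weeks, followed by 2 intraperitoneal injections of ethanol, 2 g/kg each and 1 h apart. Diet, ethanol and pancreatitis differ together between the groups and cannot be told apart. No mouse given a treatment for pancreatitis is among these samples, and it is not stated whether a pancreas and an adipose sample came from the same mouse.

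Integrins are receptors of an alpha and a beta subunit that span the cell membrane, hold cells to the extracellular matrix or to other cells, and pass signals in both directions. Laminins are trimers of an alpha, a beta and a gamma chain that form the sheet of the basement membrane, on which epithelial cells, endothelial cells, muscle cells and adipocytes rest. Acinar and duct cells of the pancreas sit on such a membrane through laminin receptors, and every adipocyte is wrapped in its own. Neutrophils and monocytes use the beta2 integrins to leave the blood.

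The libraries held 14188832 to 17238919 counts on genes in the pancreas and 20825177 to 27928097 in adipose tissue. Levels are given as CPM, the counts of a gene on a common library depth with edgeR's TMM scaling, and levels of different genes are compared only per kb of gene length. All members together made up 0.0188% and 0.0235% of a library in control pancreas and 0.0596% to 0.0719% in OA-AP pancreas, so many pancreatic members rested on few counts. The 8 acinar markers, genes of digestive enzymes, summed to 581745 and 679148 CPM in the control pancreas and to 260467 to 327322 CPM in the OA-AP pancreas, so the scaling matters in this tissue. Over all genes tested in the pancreas the log2 fold change had a median of 0.04 with TMM and 0.75 with library totals alone. Pancreas OA-AP replicate 3 stood apart in neutrophil markers, at 101 CPM over 8 genes against 3.6 to 13.1 CPM in the other 2 OA-AP libraries. Adipose control replicate 2 held 5160 CPM of the acinar markers against 7.69 to 15.8 CPM in the other 5 adipose libraries, and it had the highest B cell marker sum. Adipocyte markers dominated the adipose libraries (29250 to 34490 CPM) and were at 48.1 to 273 CPM in the pancreas.

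Control and OA-AP libraries of 1 tissue at a time were compared in edgeR (quasi-likelihood F test), and a gene was called at a Benjamini-Hochberg adjusted p under 0.05 over all tested genes and a fold change of at least 1.5. In the pancreas 29 of the 37 members passed the filter on low counts, and 11 were called, 8 higher and 3 lower in OA-AP, while 29.8% of all 12884 tested genes were called. Of the others, 6 had too few counts to be tested and 2 had none. In adipose tissue 36 members were tested and 19 were called, 11 higher and 8 lower, against 25.1% of all 15839 tested genes. The groups did not overlap for 18 of the 29 members tested in the pancreas, where 62.3% of all tested genes did not overlap, and for 24 of 36 in adipose tissue, where the share was 52.4%. Among the tested members the log2 fold change had a median of -0.27 in the pancreas, where it was 0.04 over all genes, and 0.21 in adipose tissue, where it was -0.01. The member median turned to 0.16 without pancreas control replicate 1 (0.08 over all genes) and to 0.45 with library totals alone. With that scaling the pancreatic calls were 12 higher and 1 lower, while 49.3% of all genes were called and 92% of those calls were higher. Without pancreas control replicate 1 or 2, 4 members were called, and 12.4% or 10.9% of all genes. In whole tissue, fewer cells of a type and less RNA per cell cannot be told apart. Without the pancreas library that stood apart, OA-AP replicate 3, 10 members were called, with log2 fold changes of 2.36 for Itgb4, 1.74 for Itga3, 1.20 for Lama5 and -1.72 for Lamb3. Without adipose control replicate 2, 15 of the 19 adipose calls were kept, and those lost were Itga3, Itga2b, Itgb1 and Itgb3.

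**Figure D1:**
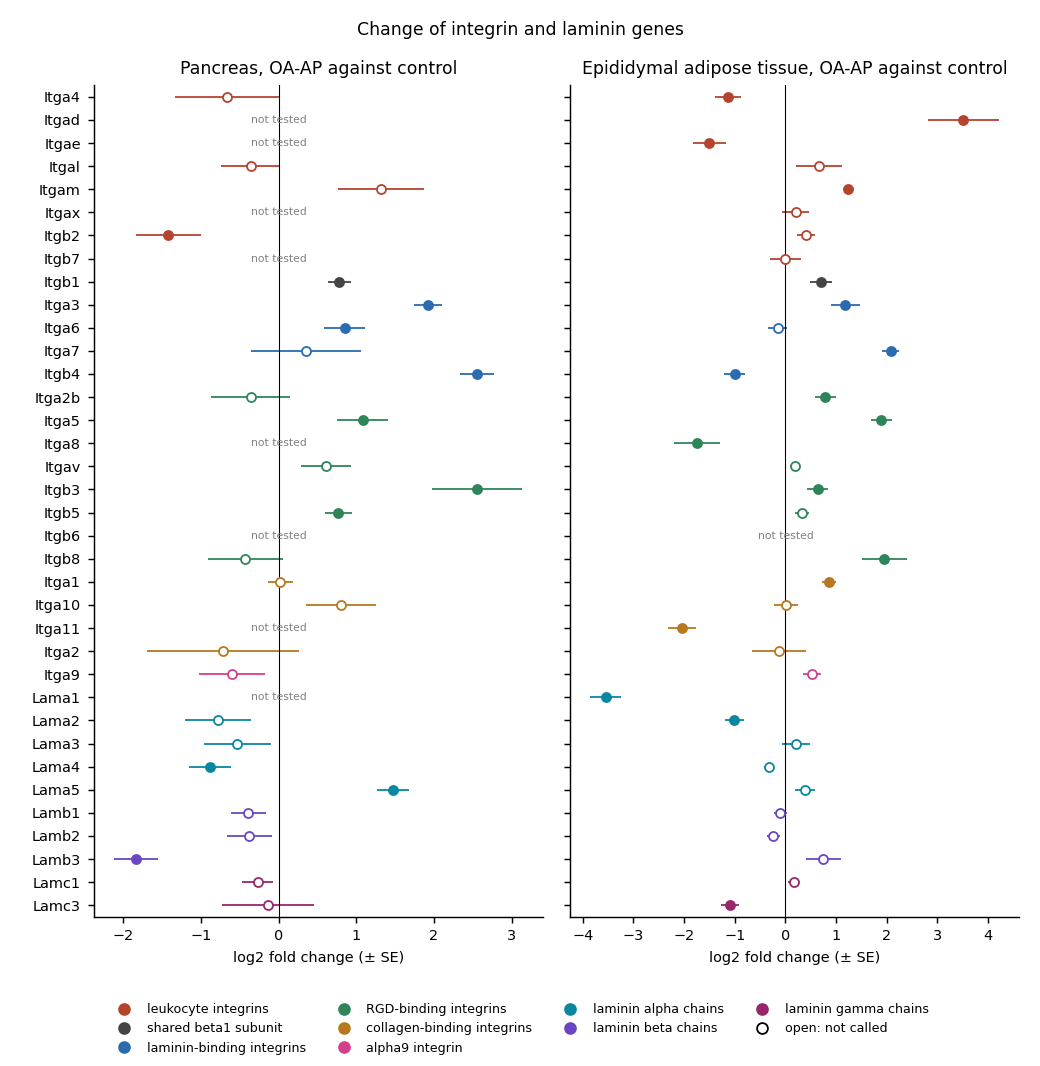
Log2 fold change in OA-AP against control with its SE for 36 integrin and laminin genes, in the pancreas (left) and epididymal adipose tissue (right), coloured by role. Filled points were called, 11 in the pancreas and 18 in adipose tissue. Itgb4 lies far to the right in the pancreas (2.55) and to the left in adipose tissue (-1.0), and Itgb3 rests on 3 counts in each pancreas control.

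Laminin-binding integrins were among the genes that rose in the pancreas. Of the 4 genes of this class, Itgb4, Itga3 and Itga6 were called higher and Itga7 was not called. The share called higher was 16.2% over all genes. Itgb4 (ENSMUSG00000020758, chromosome 11 of GRCm38, 115974709 to 116008412) encodes the beta4 subunit, which joins alpha6 in the hemidesmosome, the junction that fastens epithelial cells to laminin. Itgb4 stood at 33.8 and 23.9 CPM in the controls and at 159.9, 147 and 202 CPM in OA-AP mice. Every OA-AP library was above both controls, by more than the range within either group. The mean of 28.9 ± 6.99 CPM (SD, n = 2) became 169.6 ± 28.9 CPM in OA-AP mice (SD, n = 3), with a log2 fold change of 2.55 (standard error, SE, 0.22, adjusted p = 2.29e-04 by edgeR's quasi-likelihood test). A long noncoding gene on the opposite strand, B230344G16Rik, shares 7.66% of the exon bases of Itgb4, and it was at 0.157 to 0.577 CPM in the pancreas.

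Itga3 (ENSMUSG00000001507, chromosome 11, 95044474 to 95076801) encodes alpha3, the partner of beta1 in a receptor for laminins that hold the alpha5 or alpha3 chain. Its level was 11.2 CPM in each control library and 37.4, 39.4 and 49.8 CPM in OA-AP mice, without overlap. The change was 1.92 on the log2 scale (SE 0.18, adjusted p = 2.87e-04). Itga6 encodes alpha6, which pairs with beta4 or beta1, and was at 35.4 and 31.7 CPM in controls and 60.8, 41.5 and 79.0 CPM in OA-AP mice. The lowest OA-AP library of Itga6 was close above the controls, and the log2 fold change was 0.85 (SE 0.26, adjusted p = 0.0397). Its call was lost without control replicate 1 (adjusted p = 0.156), control replicate 2 (0.22) or OA-AP replicate 1 (0.103), and without OA-AP replicate 3 the log2 fold change was 0.56, under the threshold on the fold. Itga7, the laminin receptor subunit best known from muscle, was near 1 CPM, with libraries between 0.420 and 2.61 CPM (log2 fold change 0.35, adjusted p = 0.727).

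Per kb of gene length, Itgb4 was 4.12 CPM per kb in the control pancreas, second to Itgb1 at 12.6, and its range overlapped that of Itga6 at 3.72 (libraries of Itgb4 3.41 to 4.82, of Itga6 3.51 to 3.92). In OA-AP mice Itgb4 was 24.2 CPM per kb (20.9 to 28.8) and Itgb1 21.7 (19.0 to 24.4), and their ranges overlapped. The ratio of Itgb4 to Itgb1 was 0.360 and 0.287 in controls and 1.05, 1.10 and 1.18 in OA-AP mice. Within a library this ratio does not depend on the scaling between libraries. The ratio of Itga3 to Itga6 was 0.499 and 0.557 in controls and 0.972, 1.5 and 0.996 in OA-AP libraries, so the alpha3 transcript reached about the level of alpha6.

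The common beta subunit of the matrix receptors also rose. Itgb1, which encodes beta1, the partner of most matrix-binding alpha subunits, was at 54.7 and 48.5 CPM in control and 88.5, 77.7 and 99.4 CPM in OA-AP pancreas. The groups of Itgb1 did not overlap (log2 fold change 0.78, SE 0.15, adjusted p = 0.0062). Without either control library Itgb1 kept its direction but lost the call (adjusted p = 0.0512 and 0.0914).

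Of the 8 subunits of receptors for RGD motifs, the short amino acid signal of fibronectin and vitronectin, 6 were tested in the pancreas and 3 were called, all higher. Over all genes tested there, 16.2% were called higher. Itgb5, which pairs with alphav as a vitronectin receptor, was at 9.44 and 9.47 CPM in controls and at 15.4, 18.4 and 14.5 CPM in OA-AP mice. The control libraries nearly coincided and lay below each OA-AP library (log2 fold change 0.77, SE 0.17, adjusted p = 0.0113). Itga5, the alpha5 subunit of the main fibronectin receptor, went from 3.69 and 5.18 CPM to 7.82, 7.09 and 13.1 CPM, without overlap (log2 fold change 1.08, SE 0.33, adjusted p = 0.0382). Itgb3, beta3 of the vitronectin and the platelet fibrinogen receptors, had 3 counts in each control library and 31, 20 and 43 counts in OA-AP mice. The ratio of its scaled counts was 6.10, with a 95% counting interval from 2.7 to 17.1 (adjusted p = 0.0118), and the interval covers counting error only. Platelet markers overlapped between the groups, with sums of 3.49 to 3.69 CPM in controls and 2.06 to 14.1 CPM in OA-AP mice. Gp1bb, Gp6 and Treml1 were at 0 in every pancreas library, and Itga2b, the platelet alpha subunit, was at 0.572 to 1.70 CPM with overlapping groups. Without control replicate 1 or 2 the adjusted p was 0.0852 and 0.0878 for Itgb5, 0.235 and 0.108 for Itga5 and 0.0921 and 0.0817 for Itgb3. Itga5 also lost the call without OA-AP replicate 1 (0.0651).

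Itgav, the alphav subunit of several RGD receptors, overlapped between the groups at 6.88 and 7.04 CPM against 6.86 to 15 CPM (adjusted p = 0.183). Itgb8, which with alphav releases active TGF-beta, was near 1 CPM in controls and was not called (log2 fold change -0.43, adjusted p = 0.516). Itgb6, the epithelial partner of alphav, and Itga8, found on mesenchymal cells, had at most 7 counts in any pancreas library and were not tested. None of the 3 tested collagen receptor subunits was called, beside 29.8% of all genes. Itga1 was at 12.6 and 15.6 CPM in controls and 13.8 to 15.1 CPM in OA-AP mice, a log2 fold change of 0.02 with a SE of 0.16. Itga10 and Itga2 were below 2 CPM in every pancreas library, Itga11 had at most 11 counts and was not tested, and Itga9, a receptor subunit for tenascin and other ligands, had a log2 fold change of -0.60 (adjusted p = 0.318).

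Duct markers, keratins and other genes of the ductal epithelium, summed to 251 and 271 CPM in control and 539 to 1298 CPM in OA-AP pancreas. Among the 7 of 8 that were tested, Krt8 and Krt18, the keratin pair of simple epithelia, were called higher, while Krt19, Krt7, Sox9 and the others were not. The share called higher over all genes was 16.2%. Krt7 was 3.83 ± 0.0513 CPM (SD, n = 2) in controls and 2.76 ± 0.748 CPM (SD, n = 3) in OA-AP mice. The part of changed cell numbers in the rise of the epithelial integrins was not tested.

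**Figure D2:**
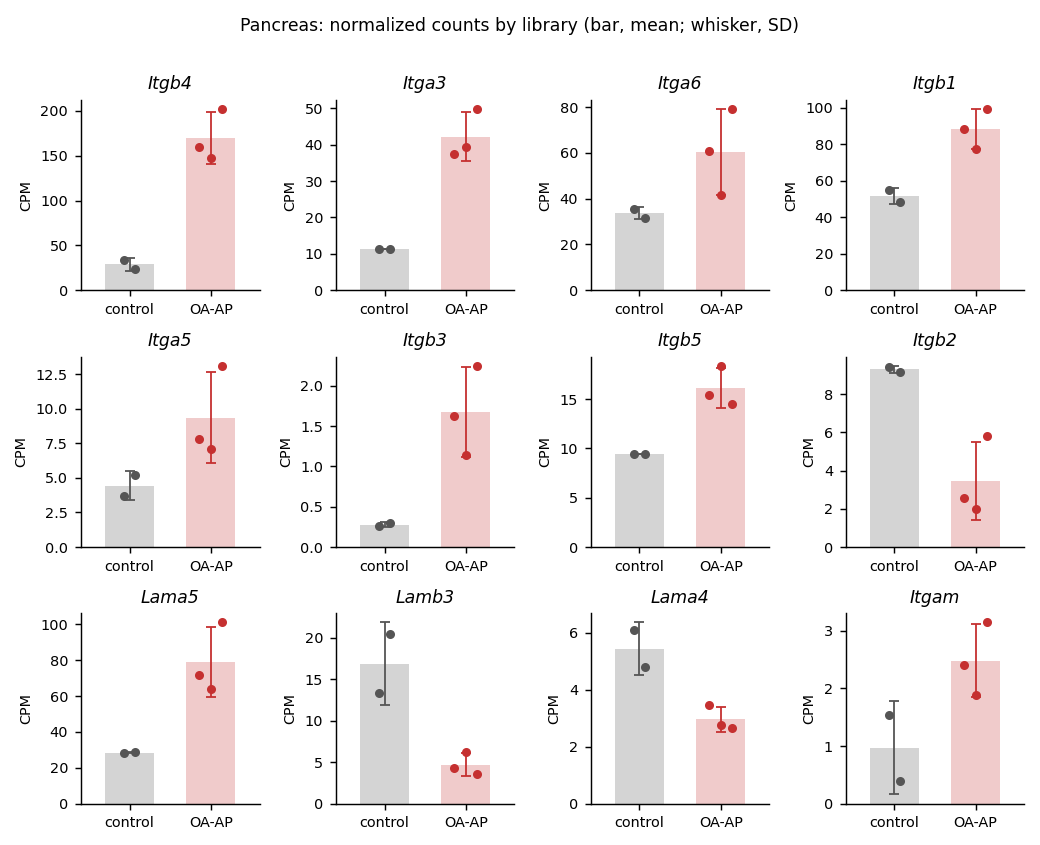
CPM of 12 members in the pancreas by library, for control (grey, n = 2) and OA-AP (red, n = 3); bars are means and whiskers SD. The 3 OA-AP libraries of Itgb4 lie between 147 and 202 CPM, above both controls, and those of Lamb3 between 3.56 and 6.29 CPM, below both.

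Laminin chains were called in both directions in the pancreas. Of the 10 chains tested, Lama5 alone was called higher, Lamb3 and Lama4 were called lower, and the 7 others were not called. The share called, 30%, was near the 29.8% of all tested genes. Of these 10 chains 9 had a negative log2 fold change (median of the 10 -0.41), but with library totals alone only 3 were negative, while 9 of 10 lay below the median of all genes under either scaling. Lama5 (ENSMUSG00000015647, chromosome 2, 180176373 to 180225859) encodes alpha5, the alpha chain of most adult epithelial and vessel basement membranes. Lama5 was at 28.4 and 28.6 CPM in controls and at 71.7, 63.8 and 101 CPM in OA-AP mice. The controls nearly coincided, far below the lowest OA-AP library (log2 fold change 1.47, SE 0.21, adjusted p = 0.0018).

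Lamb3 (ENSMUSG00000026639, chromosome 1, 193207699 to 193343878) encodes beta3, a chain of the epithelial laminin that hemidesmosomes bind. It was at 13.4 and 20.4 CPM in controls and fell to 4.30, 6.29 and 3.56 CPM in OA-AP mice, with no overlap (log2 fold change -1.84, SE 0.28, adjusted p = 0.00247). Lamb3 thus went the opposite way to Itgb4. Its partner Lama3, the alpha3 chain, was at 1.26 to 3.89 CPM over all pancreas libraries, with a log2 fold change of -0.53 (adjusted p = 0.366). Lama4, alpha4 of vessel and adipocyte basement membranes, was at 6.09 and 4.79 CPM in controls and 3.46, 2.75 and 2.67 CPM in OA-AP mice (log2 fold change -0.88, SE 0.27, adjusted p = 0.0371). The call of Lama4 was lost in 7 of 14 alternatives, among them library totals alone (log2 fold change -0.17, adjusted p = 0.698) and the removal of control replicate 1 (0.251), control replicate 2 (0.101), OA-AP replicate 1 (0.0635) or OA-AP replicate 2 (0.0726). Endothelial markers, whose cells express Lama4, summed to 77.0 and 94.6 CPM in controls and 64.4 to 82.9 CPM in OA-AP pancreas, with overlap. Of these 8 markers, 2 were called lower, where 13.5% of all genes were, and 2 had a positive log2 fold change. The part of these cells in the change of Lama4 was not tested.

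Lama1, the alpha chain of the embryo and of few adult membranes, had no count in any pancreas library, where 3 counts correspond to 0.157 to 0.299 CPM. Lama2, alpha2 of muscle and fat, Lamb1, Lamb2, Lamc1 and Lamc3 had log2 fold changes between -0.78 and -0.14 and were not called. Per kb of length the control pancreas held Lamb3 at 2.56, Lama5 at 2.50 and Lamc1, the gamma1 chain of most laminins, at 2.00 CPM per kb, and the libraries of Lamb3 (2.02 to 3.09) and Lama5 (2.49 to 2.51) overlapped. In OA-AP mice Lama5 led at 6.92 CPM per kb (5.60 to 8.87), above every library of Lamc1 at 1.66 (1.29 to 1.97). Lama5 made up 21.9% of the summed laminin level per kb in controls and 55.2% in OA-AP mice, and Lamb3 22.4% and 5.69%. No beta or gamma chain was called higher beside the alpha5 chain, and Lamb1, Lamb2 and Lamc1 were at 0.712, 1.10 and 1.66 CPM per kb in OA-AP mice.

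The promoter windows of 3 members whose pancreatic calls held in all 14 alternatives are shown, 2 that rose (Itga3, Lama5) and Lamb3, which fell, so that genes of opposite change can be read side by side. Each holds the 250 bases before a RefSeq gene start of build GRCm38.p6, written 5′ to 3′ along the gene, at chr11:95076715-95076964 on the minus strand for Itga3, chr2:180225860-180226109 on the minus strand for Lama5 and chr1:193301744-193301993 on the plus strand for Lamb3, which starts inside the longer gene of the deposited table. RefSeq windows were found for 23 of the 37 members, with 26 starts. Capitals mark matches on either strand to the GC box GGGCGG or the PU.1 core GAGGAA.
Itga3: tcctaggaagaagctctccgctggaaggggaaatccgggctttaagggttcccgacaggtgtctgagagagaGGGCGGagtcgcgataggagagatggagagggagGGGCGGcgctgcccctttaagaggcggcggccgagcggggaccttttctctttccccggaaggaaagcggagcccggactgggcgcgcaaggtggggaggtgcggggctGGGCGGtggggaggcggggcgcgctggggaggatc
Lama5: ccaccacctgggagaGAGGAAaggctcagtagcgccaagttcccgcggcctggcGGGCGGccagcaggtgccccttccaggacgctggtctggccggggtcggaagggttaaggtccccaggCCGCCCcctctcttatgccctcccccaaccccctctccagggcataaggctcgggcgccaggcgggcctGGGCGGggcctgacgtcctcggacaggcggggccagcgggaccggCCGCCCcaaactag
Lamb3: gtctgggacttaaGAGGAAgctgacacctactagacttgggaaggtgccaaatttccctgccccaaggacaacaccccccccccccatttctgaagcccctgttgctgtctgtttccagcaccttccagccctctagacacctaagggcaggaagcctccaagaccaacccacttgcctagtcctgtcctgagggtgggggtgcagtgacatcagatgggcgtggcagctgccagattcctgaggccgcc
The Itga3 window held 3 GC boxes and the Lama5 window 4, and that of Lamb3 held none. Over all 32851 RefSeq windows of this length, 32.7% held a GC box and 23.3% the PU.1 core, which the Lama5 and Lamb3 windows held 1 time each. Also searched were the AP-1 site TGANTCA, in 6.75% of windows, the E-box CACGTG in 6.02% and the TEAD site GGAATG in 12.6%, and none of these 3 windows held any of them. Itga3 and Lamb3 each have another RefSeq start, and its window held 1 PU.1 core and 1 GC box in Itga3 and 1 TEAD site in Lamb3. GAGGAA and GGAATG can overlap each other. A match is a run of letters and no measured binding.

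**Figure D3:**
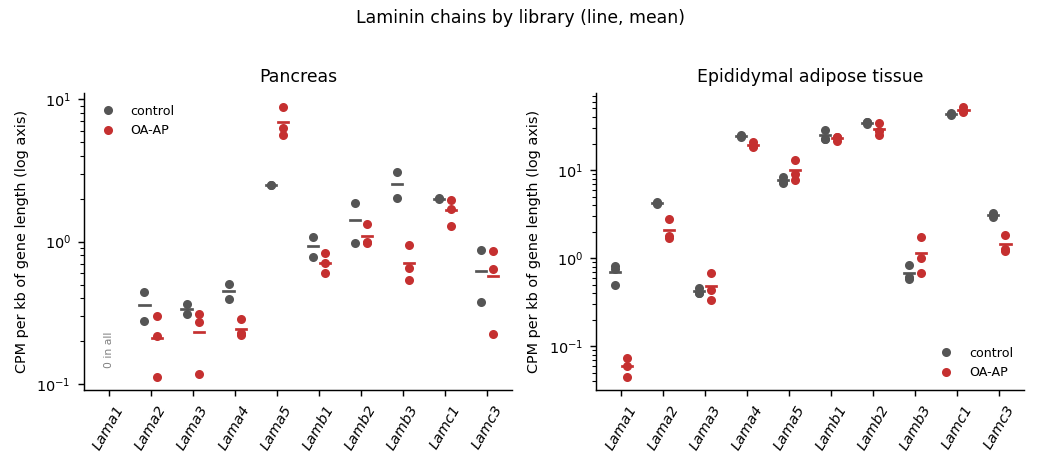
Level of 10 laminin chains in CPM per kb of gene length on a log axis, for the pancreas (left) and epididymal adipose tissue (right); points are libraries (grey control, red OA-AP) and short lines are means. In the OA-AP pancreas Lama5 stands at 6.92 CPM per kb, above every other chain, and in adipose tissue Lama1 drops from 0.692 to 0.0589.

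Leukocyte integrins were scarce in the pancreas. Of the 8 subunits, 4 were tested, and Itgb2 alone was called, beside 29.8% of all genes. Itgb2 encodes beta2, which pairs with alphaL, alphaM, alphaX or alphaD on all white blood cells. It was at 9.44 and 9.17 CPM in controls and at 2.57, 2.00 and 5.81 CPM in OA-AP mice. OA-AP replicate 3, the library with the most neutrophil signal, was the nearest to the controls. The log2 fold change of Itgb2 was -1.42 (SE 0.42, adjusted p = 0.0361), and without that library it was -2.06 (8.67e-06). The call was lost with library totals alone (log2 fold change -0.75, adjusted p = 0.123) and without control replicate 1 (0.166), control replicate 2 (0.159) or OA-AP replicate 1 (0.106).

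Beta2 stood far above its partners in the control pancreas. Per kb of length the ratio of Itgb2 to the sum of Itgal, Itgam, Itgax and Itgad was 4.87 and 8.91 in controls and 1.19, 1.07 and 1.97 in OA-AP pancreas. The gene model Gm49368 shares 68.67% of the exon bases of Itgam, and its part in the level of this ratio was not tested. The partner sum itself was 0.337 and 0.635 CPM per kb in controls and 0.615 to 0.966 in OA-AP pancreas, with overlap, and none of these partners was called. Itgam, alphaM (CD11b) of neutrophils and macrophages, was at 1.54 and 0.399 CPM in controls and 2.41, 1.89 and 3.14 CPM in OA-AP mice (log2 fold change 1.32, SE 0.55, adjusted p = 0.0978). Its groups did not overlap, and it passed the threshold with library totals alone (adjusted p = 0.0136) and without the filter on low counts (0.024). Neutrophil markers summed to 1.03 and 1.89 CPM in controls and 3.6 to 101 CPM in OA-AP pancreas, with none of the 6 tested genes called, and macrophage markers overlapped between groups (28.5 and 58.0 against 50 to 107 CPM). Itgal, alphaL of lymphocytes, and Itga4, alpha4 of lymphocytes and monocytes, were below 2 CPM in every pancreas library and not called. Itgax of dendritic cells, Itgb7 and Itgae of gut-homing lymphocytes had at most 10 counts in a library, and Itgad had none. T cell markers were at most 1.89 CPM as a sum of 8 genes.

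Leukocyte integrins split in adipose tissue. All 8 subunits were tested, with Itgam and Itgad called higher, Itga4 and Itgae called lower, and Itgb2, Itgal, Itgax and Itgb7 not called. Over all genes tested in this tissue, 12.1% were called higher and 13% lower. Itgam (ENSMUSG00000030786, chromosome 7, 128062640 to 128118491) was at 69.6, 71.0 and 62.4 CPM in control libraries and at 143, 169 and 167 CPM in OA-AP libraries. The spread within each group was small beside the gap (log2 fold change 1.24, SE 0.11, adjusted p = 5.37e-04). Itgad, alphaD of some tissue macrophages, had 5, 4 and 1 counts in the controls and 15, 21 and 53 in OA-AP mice, or 0.0340 to 0.185 against 0.778 to 2.68 CPM. The ratio of scaled counts of Itgad was 11.9, with a 95% counting interval from 6.18 to 25.7 (log2 fold change 3.51, SE 0.70, adjusted p = 0.00882).

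Itgae, alphaE (CD103) of T cells and dendritic cells in epithelia, was at 8.34, 4.75 and 5.28 CPM in controls and fell to 3.01, 1.78 and 1.72 CPM (log2 fold change -1.50, SE 0.32, adjusted p = 0.0106). Itga4 was at 18.0, 26.9 and 15.6 CPM in controls and 8.60, 7.21 and 11.9 CPM in OA-AP mice (log2 fold change -1.13, SE 0.26, adjusted p = 0.0154). Neither gene overlapped between the groups. The highest Itga4 value was in control replicate 2, the library with acinar RNA, and without it the log2 fold change was -0.86 (adjusted p = 0.0334). Itgb2 was at 41.7 to 55.3 CPM in controls and 49.5 to 75.7 CPM in OA-AP mice, with overlap (log2 fold change 0.41, adjusted p = 0.114). Itgax and Itgb7 had log2 fold changes of 0.20 and -0.00, and Itgal ranged from 4.86 to 16.9 CPM in the OA-AP libraries alone (adjusted p = 0.292).

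The leukocyte marker lists differed in the same libraries, where 12.1% of all tested genes were called higher and 13% lower. Neutrophil markers summed to 9.63 to 16.1 CPM in control and 179 to 198 CPM in OA-AP adipose tissue, with 6 of 7 tested genes called higher and 1 lower. Macrophage and monocyte markers went from 727 to 903 CPM up to 929 to 1377 CPM, with 4 of 8 called higher and 1 lower. T cell markers were at 9.19 to 22.6 CPM in controls and 4.30 to 6.67 CPM in OA-AP mice, with 3 of 7 tested genes called lower. B cell markers had ranges of 87.3 to 515 and 22.5 to 108 CPM, with 6 of 8 called lower and the highest value in control replicate 2. The part of these cells in the changes of the integrins was not tested.

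Itgam, Itgax and Itgad are neighbours on chromosome 7, all on the plus strand, and Itgam rose while Itgax was not called. Their windows are shown for that reason, at chr7:128062390-128062639 for Itgam and chr7:128129300-128129549 for Itgax, with the PU.1 core, the GC box and the AP-1 site in capitals. Itgad had no entry.
Itgam: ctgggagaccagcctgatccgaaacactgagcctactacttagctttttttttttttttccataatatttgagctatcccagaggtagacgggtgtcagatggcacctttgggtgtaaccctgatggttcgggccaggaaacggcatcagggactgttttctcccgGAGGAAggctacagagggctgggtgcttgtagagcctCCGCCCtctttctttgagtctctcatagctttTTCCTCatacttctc
Itgax: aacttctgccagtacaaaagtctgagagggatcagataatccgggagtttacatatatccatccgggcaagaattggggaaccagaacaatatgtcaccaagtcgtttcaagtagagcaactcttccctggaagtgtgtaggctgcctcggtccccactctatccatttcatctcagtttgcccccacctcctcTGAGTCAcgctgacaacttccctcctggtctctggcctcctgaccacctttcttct
The Itgam window held the PU.1 core 2 times and 1 GC box, and the Itgax window held 1 AP-1 site and neither of the others. In the annotation a second gene model, Gm49368, covers 68.67% of the exon bases of Itgam on the same strand. It was listed at 0 in the pancreas table and is no row of the adipose table, so the level of Itgam cannot be compared between the tissues, while the comparison within each tissue uses 1 table.

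Among the laminin-binding integrins of adipose tissue, Itga7 and Itga3 rose, Itgb4 fell and Itga6 was not called. The shares over all genes were 12.1% called higher and 13% called lower. Itga7 (ENSMUSG00000025348, chromosome 10, 128933818 to 128958282) was at 199, 204 and 157 CPM in controls and at 886, 651 and 821 CPM in OA-AP mice. The lowest OA-AP library was far above the highest control (log2 fold change 2.08, SE 0.17, adjusted p = 4.74e-04). Per kb it went from 23.0 to 97.2 CPM per kb and was the most abundant alpha subunit in OA-AP mice. Its libraries there were at 80.4 to 109.5, against 31.1 to 52.6 for Itga5, the next alpha subunit, and 15.1 to 25.3 for Itga6. The ratio of Itga7 to Itga6 was 0.998, 1.10 and 1.00 in controls and 7.25, 3.18 and 5.13 in OA-AP mice. Itga6 itself overlapped between the groups at 175 to 222 and 136 to 228 CPM (log2 fold change -0.15, SE 0.19, adjusted p = 0.572).

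Itga3 was at 24.5, 24.5 and 30.6 CPM in control and 50.1, 88.8 and 41.6 CPM in OA-AP adipose tissue, a log2 fold change of 1.18 (SE 0.29, adjusted p = 0.0194). The OA-AP libraries of Itga3 were all above the controls but spread widely, and the call was lost without control replicate 1 (0.0672) or 2 (0.0601) and without the filter on low counts (0.0757). Itgb4 was at 13.1, 18.8 and 21.2 CPM in controls and 9.59, 7.26 and 9.75 CPM in OA-AP mice. It fell without overlap (log2 fold change -1.0, SE 0.21, adjusted p = 0.0103), and per kb it was 1.26 CPM per kb beside 179 for Itgb1 in OA-AP tissue. Mesothelial markers, genes of the epithelium that covers this fat pad, summed to 325 to 852 CPM in controls and 175 to 582 CPM in OA-AP mice with none of 8 called. Smooth muscle markers were at 422 to 658 and 354 to 745 CPM, with 1 of 8 called lower, and their part in the change of Itga7 was not tested.

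The beta1 subunit, the fibronectin receptor subunit alpha5 and the collagen receptor subunit alpha1 also rose, beside alpha3 and alpha7. Itgb1 was at 418, 490.4 and 443 CPM in controls and 521, 904 and 763 CPM in OA-AP mice (log2 fold change 0.70, SE 0.21, adjusted p = 0.0344), with the lowest OA-AP library close above the controls. Itga5 was at 59.8, 52.6 and 47.4 CPM in controls and 181, 153 and 259 CPM in OA-AP mice. Its groups were far apart (log2 fold change 1.89, SE 0.21, adjusted p = 0.00124). Itga1, alpha1 of a collagen IV receptor, went from 49.0, 49.9 and 41.9 to 72.4, 89.0 and 94.7 CPM, also without overlap (log2 fold change 0.86, SE 0.13, adjusted p = 0.00289). Itgb1 lost the call with library totals alone (adjusted p = 0.0831) and without control replicate 1 (0.108), 2 (0.0662) or 3 (0.102) or OA-AP replicate 2 (0.0609) or 3 (0.0932), whereas Itga5 kept it in all 15 alternatives and Itga1 in all but the fold change of at least 2.

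Itga11, the fibroblast receptor subunit for fibrillar collagen, fell from 7.05, 10.4 and 10.2 CPM to 2.23, 1.59 and 2.88 CPM. Each OA-AP library was below every control (log2 fold change -2.04, SE 0.27, adjusted p = 0.00198). Fibroblast markers fell in range beside it, from 3390 to 4277 CPM in controls to 2069 to 2526 CPM in OA-AP mice. Of the 8 markers 5 were called lower, where 13% of all genes were. The part of fibroblasts in the change of Itga11 was not tested. Itga10 and Itga2, the other collagen receptor subunits, had log2 fold changes of 0.01 and -0.12.

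Of the 7 RGD-receptor subunits tested in adipose tissue, 5 were called, 4 higher and 1 lower. Over all genes 12.1% were called higher and 13% lower. Beside Itga5, Itgb8 rose from 1.22, 1.10 and 1.33 CPM to 4.82, 7.26 and 2.07 CPM (log2 fold change 1.95, SE 0.44, adjusted p = 0.0139), with a wide spread among OA-AP mice. Itga2b was at 3.58, 2.8 and 3.57 CPM in controls and 7.05, 5.53 and 4.70 CPM in OA-AP mice (log2 fold change 0.79, SE 0.21, adjusted p = 0.025). Itgb3, its partner on platelets, was at 9.63, 8.60 and 12.0 and then 14, 20 and 13 CPM (log2 fold change 0.64, SE 0.21, adjusted p = 0.0462). The groups did not overlap in these 3 genes, but the gap was narrow for Itgb3. Platelet markers, a list that includes Itga2b, summed to 41.7 to 54.7 CPM in controls and 66.0 to 104 CPM in OA-AP mice, with 2 of 5 tested genes called higher, Ppbp and Itga2b itself. The part of platelets in the rise was not tested. Itga8 fell from 1.59, 1.95 and 2.79 CPM to 0.311, 1.06 and 0.505 CPM, again without overlap (log2 fold change -1.74, SE 0.45, adjusted p = 0.021). Itgav and Itgb5 had log2 fold changes of 0.18 and 0.32 (adjusted p = 0.0991 and 0.103), Itga9 0.52 (0.0544), and Itgb6 had no count.

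Several of these calls were lost when 1 library was left out, while the log2 fold changes kept their sign. Of all genes 25.1% were called with every library. Without control replicates 1, 2 and 3 the share was 19.8%, 22.2% and 17.8%. Without OA-AP replicates 1, 2 and 3 it was 22.3%, 27.6% and 18.7%. Itgb3 lost the call without each of the 6 libraries in turn (adjusted p = 0.132, 0.131 and 0.056 without control replicates 1, 2 and 3, and 0.0592, 0.0872 and 0.0501 without OA-AP replicates 1, 2 and 3) and with library totals alone (0.11). Itga2b lost it without control replicate 1 (0.0581), 2 (0.0733) or 3 (0.0604) or OA-AP replicate 1 (0.0697). Itgb8 lost it without control replicate 1 (0.0511) or 3 (0.0503), and Itga8 without control replicate 3 (0.0802) or OA-AP replicate 3 (0.0735).

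**Figure D4:**
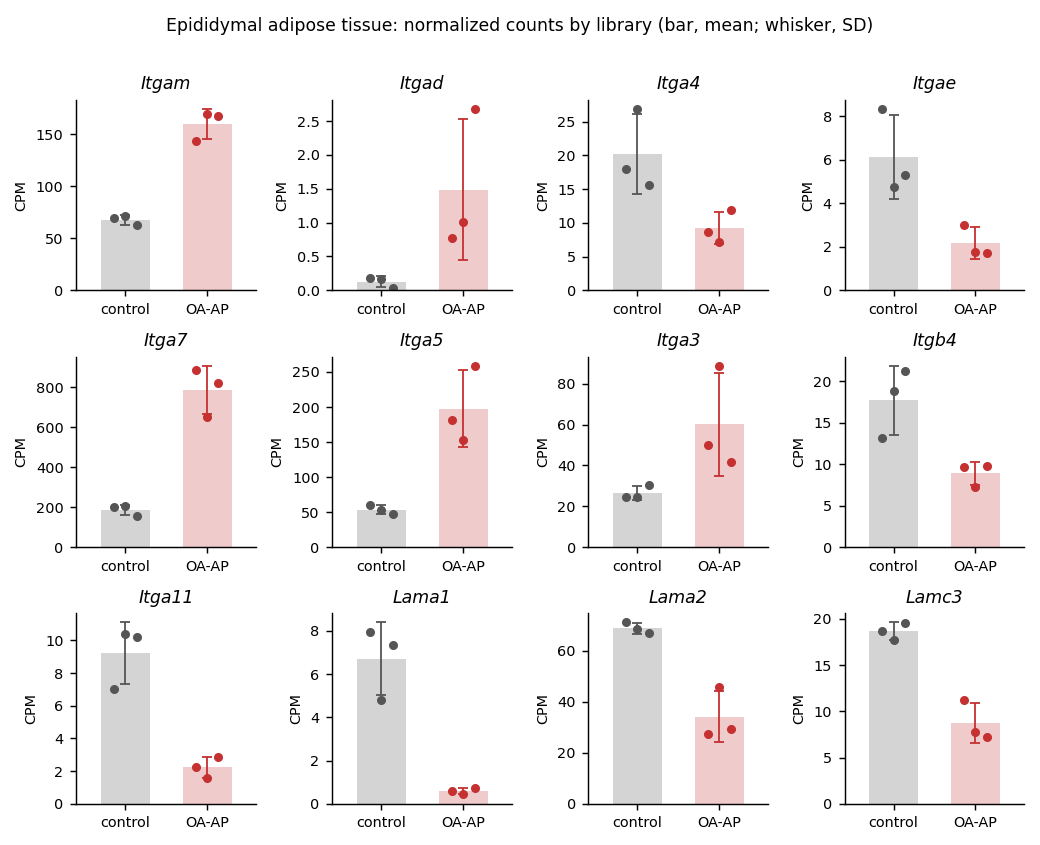
CPM of 12 members in epididymal adipose tissue by library, for control (grey, n = 3) and OA-AP (red, n = 3); bars are means and whiskers SD. Itga7 reaches 651 to 886 CPM in OA-AP against 157 to 204 CPM in control libraries, and Lama1 drops below 1 CPM in all 3 OA-AP libraries.

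Laminin chains changed in minor members in adipose tissue. Of the chains described, Lama1, Lama2 and Lamc3 were called lower and none of the others was called. Of all genes tested there, 13% were called lower. Lama1 (ENSMUSG00000032796, chromosome 17, 67697259 to 67822647) was at 7.97, 4.79 and 7.35 CPM in controls and at 0.570, 0.433 and 0.707 CPM in OA-AP mice. The OA-AP libraries held 11, 9 and 14 counts against 216, 113 and 216 in controls (log2 fold change -3.55, SE 0.30, adjusted p = 5.37e-04). Control replicate 2 had the lowest control value, and without it the log2 fold change was -3.73 (adjusted p = 0.00139).

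Lama2 was at 71.2, 68.5 and 67.1 CPM in controls and fell to 27.5, 45.7 and 29.4 CPM (log2 fold change -1.01, SE 0.19, adjusted p = 0.00734). Lamc3, the gamma3 chain, was at 18.7, 17.7 and 19.6 CPM in controls and fell to 11.2, 7.74 and 7.22 CPM (log2 fold change -1.10, SE 0.18, adjusted p = 0.00422). The controls of both genes lay close together and above every OA-AP library. Lamb3 and Lama3, chains of epithelial laminin, were not called, with Lamb3 at 3.80 to 5.59 and 4.46 to 11.5 CPM (adjusted p = 0.136) and Lama3 at 4.28 to 4.94 and 3.63 to 7.37 CPM (0.569). The calls of Lama1, Lama2 and Lamc3 held in every alternative in which the gene was tested.

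The abundant chains moved little. Per kb of length Lamc1 led at 43.0 CPM per kb in controls and 48.0 in OA-AP mice, followed by Lamb2 at 34.4 and 29.1, Lamb1 at 24.7 and 23.0 and Lama4 at 24.3 and 19.5. The library ranges of Lamb1 and Lama4 overlapped in controls (22.6 to 28.8 and 23.9 to 24.9 CPM per kb), so their order is not set, and Lama5 stood below them at 7.62 and 9.97. Lama4, the leading alpha chain, was at 292, 300.3 and 289 CPM in controls and 228, 253 and 223 CPM in OA-AP mice. Its adjusted p was 0.0397 with no overlap, but the log2 fold change of -0.32 was under the fold threshold. Lamc1 had a log2 fold change of 0.16 and Lama5 of 0.39, and neither was called.

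The partners of these receptors were read from 3 lists of other genes. In the pancreas 12 of 22 tested integrin adaptors were called, 10 higher and 2 lower, where 29.8% of all genes were called and 16.2% higher. Zyx, zyxin of focal adhesions, had a log2 fold change of 2.40 (SE 0.32, adjusted p = 0.00195), and Vcl, vinculin, 1.92 (SE 0.25, adjusted p = 0.00117). Src, a kinase at adhesions, and Fermt2, the integrin activator kindlin-2, rose by 1.46 and 1.41 on the log2 scale (adjusted p = 0.00173 and 9.18e-04). The adaptors that fell were Tln2 and Itgb1bp1, which were named after their values were seen. In adipose tissue 3 of 23 tested adaptors (13%) were called, below the 25.1% of all genes. Of these 23 adaptors, 20 had a positive log2 fold change and 3 a negative one (median 0.36, against -0.01 over all genes). Over the 3 lists in this tissue, 8 partners were called higher and 7 lower. With the adjusted p alone these were 17 and 7, where 36.8% of all genes were called. Actn1, an actin crosslinker, rose from 81.6 to 212 CPM (log2 fold change 1.38, adjusted p = 4.02e-04), Pxn, paxillin, rose (0.86, adjusted p = 0.00256) and Tln2, a talin, fell (-0.88, adjusted p = 0.0112, and 0.0525 without control replicate 3).

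Among the basement membrane partners of laminin, Col4a1 and Col4a2, the chains of the common collagen IV network, rose in both tissues. In the pancreas they went from 33.2 to 77.2 and from 18.3 to 44.4 CPM (log2 fold changes 1.22 and 1.28, adjusted p = 0.00198 and 0.00347), and in adipose tissue from 1245 to 3157 and from 731 to 1795 CPM (1.34 and 1.30, adjusted p = 0.00221 and 0.00216). Agrn, agrin, which ties laminin to the cell surface, fell in both, by 0.64 in the pancreas and 0.82 in adipose tissue on the log2 scale (adjusted p = 0.00503 and 7.01e-04), though its pancreatic value was 0.08 with library totals alone. Without pancreas control replicate 1 the adjusted p was 0.0579 for Agrn and 0.0546 for Col4a2, and without replicate 2 it was 0.0615 for Agrn. Col15a1, which links basement membranes to the matrix below, fell in the pancreas (log2 fold change -1.86, adjusted p = 9.89e-04). Of 13 tested partners there, 2 were called higher and 3 lower (38.5% called), beside 29.8% of all genes called. Of 15 in adipose tissue 2 were higher and 5 lower (46.7% called), beside 25.1% of all genes called. Those lower were Agrn and the 4 other collagen IV chains, Col4a6 at -1.94 (adjusted p = 0.00352), Col4a4 at -2.38 (0.00392), Col4a3 at -1.83 (0.021) and Col4a5 at -1.37 (0.023). The last 3 chains were named after their values were seen.

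Among 12 tested integrin ligands, 5 were called higher and 1 lower in the pancreas. F11r, a junction molecule bound by alphaL beta2, rose from 16.2 to 58.7 CPM (log2 fold change 1.85, adjusted p = 0.00168), and Cdh1, E-cadherin, the ligand of alphaE beta7, from 59.6 to 296 CPM with an SD of 183 CPM among the OA-AP libraries (2.31, adjusted p = 0.0238 by edgeR). The OA-AP counts of Cdh1 were 4298, 2773 and 9638, the highest in replicate 3, and without that library the log2 fold change was 1.64 (adjusted p = 2.06e-06). Fga, a chain of fibrinogen, had 1 and 0 counts in controls and 39, 10 and 72 in OA-AP mice, a ratio of 47.1 with a counting interval from 8.30 to 1877 (adjusted p = 0.0183). Fgg, another fibrinogen chain at 0 in both controls, and Thbs1, a thrombospondin, also rose and were named after their values were seen. Vtn, vitronectin, fell in the pancreas from 43.9 to 17.6 CPM (log2 fold change -1.32, adjusted p = 0.00938) and in adipose tissue from 24.0 to 8.61 CPM (-1.48, adjusted p = 5.37e-04). In adipose tissue 4 of 12 tested ligands were higher and Vtn alone lower. Spp1, osteopontin, had 22, 29 and 16 counts in controls and 1723, 660 and 1372 counts in OA-AP mice (log2 fold change 6.22, SE 0.51, adjusted p = 6.14e-04). Tnc, tenascin C, went from 14.9 to 222 CPM (3.90, adjusted p = 3.47e-04) and Mfge8, which bridges dying cells to alphav receptors, from 322 to 841 CPM (1.39, adjusted p = 0.00631). Over the 3 lists, 23 of 47 tested partners (48.9%) were called in the pancreas, beside 29.8% of all genes, and 15 of 50 (30%) in adipose tissue, near the 25.1% of all genes. The pancreatic calls of Cdh1, Vtn and Fga were lost without control replicate 1 (adjusted p = 0.123, 0.0811 and 0.0994) or 2 (0.128, 0.0625 and 0.134). Without control replicate 1 or 2 the pancreatic count was 7 or 8, while the share of all genes called fell to 12.4% or 10.9%.

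Between the tissues, 4 members were called higher in both, the beta1 subunit Itgb1, its partners Itga3 and Itga5, and Itgb3, and none was called lower in both. A test of the difference itself, the tissue by condition term over all 11 libraries, called 8 of the 36 members tested, where 20.6% of all 17046 tested genes were called. The change was the higher one in adipose tissue for 5 of them and in the pancreas for 3, and with library totals alone for 1 and 9, where 5.73% of all calls were higher in adipose tissue. For Itgad and Lama1, at 0 in the pancreas, it gave no estimate. The largest difference was in Itgb4, whose change in adipose tissue minus that in the pancreas was -3.56 on the log2 scale (SE 0.33, adjusted p = 4.99e-05). Lamb3 differed in the other direction by 2.58 (SE 0.50, adjusted p = 0.00413). These 2 kept their call in all 20 alternatives of this test. Itga3, Itga5 and Itgb1 had differences of -0.74, 0.79 and -0.09 and were not called, nor was Itga7 at 1.70 (SE 0.70, adjusted p = 0.113). Itgam changed by 1.32 and 1.24 in the pancreas and adipose tissue, a difference of -0.08 with a SE of 0.44.

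**Figure D5:**
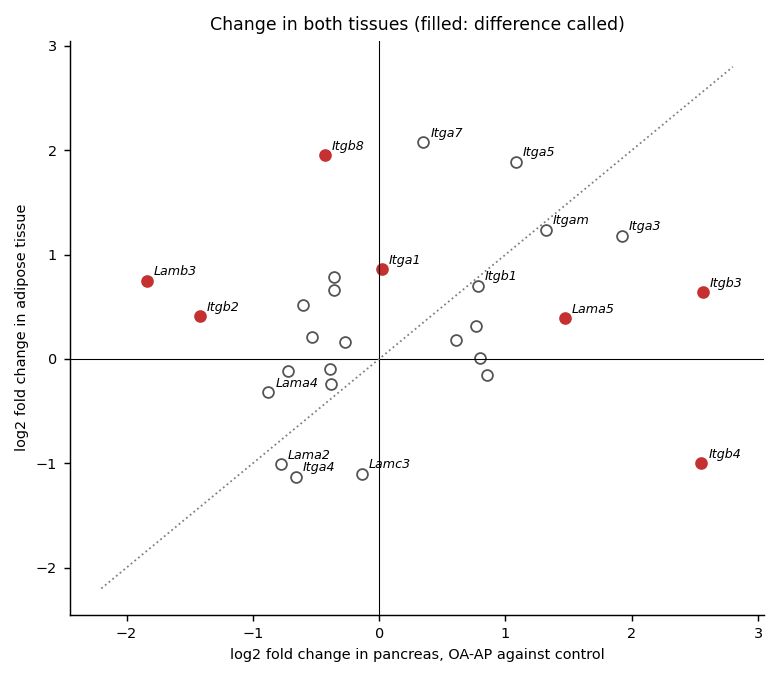
Log2 fold change in OA-AP against control in the pancreas (horizontal axis) and in adipose tissue (vertical axis) for 28 members tested in both; the dotted line marks equal change. The 7 filled points are members whose change differed between the tissues by the tissue by condition test, with Itgb4 at the lower right (2.55 and -1.0) and Lamb3 at the upper left (-1.84 and 0.75).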

How the data were processed

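Counts of RNA sequencing reads per gene from 11 libraries were used as deposited. The authors trimmed reads with Trim Galore 0.6.6, checked them with fastp 0.20.1, aligned them to GRCm38 with STAR and counted them with featureCounts 2.0.1, and the deposited counts carry no normalization. The annotation release and the strand setting are not given in the sources used here, so reads of overlapping genes may be shared. Start, end and length of the members matched GENCODE M21 for 37 of 37, and lengths of the pancreas table served for both tissues.

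Genes were filtered with filterByExpr, scaled with TMM and tested with the robust quasi-likelihood F test of edgeR 4.0.16 (limma 3.58.1, R 4.3.3) over each whole table, with Benjamini-Hochberg adjustment over all tested genes. The SE was taken from the F statistic. In the tissue by condition test the genes of both tables were fitted together. Intervals of count ratios are exact, at the 95% level, and cover counting error only. A floor of 3 counts in a library corresponds to 0.157 to 0.299 CPM in the pancreas and 0.102 to 0.156 CPM in adipose tissue. The code was tested on simulated data. Nothing states how replicates were housed or prepared, so p-values measure the spread between these samples, and libraries of 1 group differed by more than sampling noise (chi-square per degree of freedom 7.56 to 73.9). Alternatives were DESeq2 1.42.0, other scalings, filters and thresholds, a replicate block and leaving out each library.

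Members are reported by role and partner genes by the 4 called ones with the lowest adjusted p in each of 3 lists and tissue. The members, lists and tests were chosen with earlier results of these data known. Results of 1 member are not reported here, and it is counted in the totals over members.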

Additional observations from a re-analysis of the deposited data

Results flagged for a closer look

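The tissue by condition term of edgeR's quasi-likelihood test differed from 0 in the 7 members described here. The values are the log2 fold change in adipose tissue minus that in the pancreas. Itgb4 had -3.56 and Lama5 -1.09, since both rose in the pancreas while in adipose tissue Itgb4 fell and Lama5 was not called. Lamb3 had 2.58 and Itgb2 1.81. Both fell in the pancreas and were not called in adipose tissue. Itgb8 had 2.37 and Itga1 0.84, and both were called higher in adipose tissue and not called in the pancreas. Itgb3 had -1.96, a value that rests on 3 counts in each pancreas control library.

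Of these, Itgb4 and Lamb3 kept their call in all 20 alternatives. Without pancreas control replicate 1 the adjusted p was 0.154 for Itgb3, 0.105 for Lama5, 0.0752 for Itgb8 and 0.0672 for Itgb2. Without pancreas control replicate 2 it was 0.126 for Itgb8, 0.119 for Itgb3, 0.113 for Lama5, 0.0753 for Itga1 and 0.0598 for Itgb2. Itgb8 kept its call in 9 of 20 alternatives and Itgb3 in 11 of 19.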

How the results depend on the processing

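Of the 11 pancreatic calls, 4 held in all 14 alternatives (Itgb4, Itga3, Lama5 and Lamb3), and of the 19 adipose calls 11 held in all alternatives in which the gene was tested. The number of pancreatic members called was 7 at a fold change of at least 2 and 4 to 11 with 1 library left out, with 4 without control replicate 1 or 2, where 12.4% and 10.9% of all genes were called. Pancreatic partner calls went from 23 to between 7 and 23 with 1 library left out, and adipose partner calls from 15 to 24 with the adjusted p alone and to between 11 and 20 with 1 library left out. Over all genes 19.1% were called in the pancreas at a fold change of at least 2. In adipose tissue 36.8% were called with the adjusted p alone, and 17.8% to 27.6% with 1 library left out. Members with a tissue difference numbered 8, beside 20.6% of all genes, and the number moved with 1 library left out. In that test 17% to 21.5% of all genes were called with 1 library left out of a group of 3. With library totals alone the median of all genes moved from 0.04 to 0.75 in the pancreas, Agrn turned to 0.08 there and the tissue difference of Itga1 to -0.02. In these 2 results, both called with TMM, the sign reversed. Of the 29 tested pancreatic members, 13 had a positive log2 fold change with TMM and 24 with library totals alone, so members without a call changed sign too. The cause was not tested. The call of Itgb2 and Lama4 in the pancreas was lost under that scaling.

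Within a tissue, replicate numbers did not pair control with OA-AP samples, which are different mice. Same-numbered control and OA-AP libraries had correlations of 0.00 and -0.04 in the pancreas and -0.02, 0.05 and -0.18 in adipose tissue. Whether a pancreas and an adipose library came from the same mouse is not stated and was not checked. The tissue by condition test took all 11 libraries as independent. With the replicate block 5 members differed between tissues, and 11 and 17 members and 23 and 13 partners were called in the pancreas and adipose tissue. With that block 17.3% of all genes differed between tissues, and 31.8% and 22% were called in the pancreas and adipose tissue. DESeq2 called 11, 19 and 10 members in the pancreas, in adipose tissue and between them. Its shares of all genes were 29.7%, 25.8% and 24.2%. Low counts limit the pancreas, where 6 members with reads could not be tested.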
